A study of Mus musculus with 10 samples.

Results

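Transcripts of the enzymes that build the outer sugars of mucins, membrane glycoproteins and glycolipids were measured in mouse colon and colon organoids with and without p53. The genes were taken by name: every non-control probe annotated to a Galnt, Gcnt, B3gnt, B3galt, B4galt, B4galnt, St3gal, St6gal, St6galnac, St8sia, Fut or C1galt gene with a number. This gave 79 gene names on 146 probes, of 56605 probes and 25160 named genes on the array. Of the 79 names, 76 were enzymes, counting C1galt1c1, the chaperone of an enzyme, among them. The others were the pseudogene Fut4-ps1 and the opposite-strand transcripts Galnt6os and St8sia3os.

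The enzymes work in order along the Golgi. GALNT enzymes start a mucin-type O-glycan by placing GalNAc on serine or threonine, core enzymes add the next sugar, branching and chain enzymes add GlcNAc and galactose, and fucosyl- and sialyltransferases cap the chain. In the colon these glycans coat the mucins of goblet cells and the brush border of colonocytes, carry blood group and Lewis antigens, and are the surface that bacteria and lectins meet.

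Whole colon came from male mice in which Axin2CreERT2, an inducible recombinase expressed in cells that use the Wnt target Axin2, can delete floxed Trp53. The mice were given tamoxifen and 2% dextran sodium sulfate (DSS), which injures the epithelium, for 5 to 7 days, and were killed 2 months after DSS. KO and WT mice (2 of each) both received DSS, and the labels give no age. Every KO mouse was hybridised against 1 WT mouse on 2-colour arrays in both dye orientations, which gave 4 arrays. Organoids, gel cultures grown from isolated crypts, carried VillinCreERT2, a recombinase of the gut epithelium, with Trp53 fl/fl. KO organoids were made with 800 nM 4OH-tamoxifen for 2 days and selected with Nutlin-3A, an MDM2 inhibitor that arrests p53-proficient cells. WT and KO organoids grew in full medium with 0.328 nM surrogate Wnt, 3 µM of the GSK3 inhibitor CHIR, R-spondin, noggin, EGF and the TGF-beta receptor inhibitor A83-01. KOWI organoids were KO organoids grown without surrogate Wnt and CHIR, so deletion, medium and selection in that medium cannot be told apart in KOWI over WT. Deletion and Nutlin-3A selection likewise cannot be told apart in KO over WT organoids. Each of the 3 organoid groups had 2 samples, compared in a loop of 6 arrays. The series calls the replicates independent, but no label says that the organoid replicates came from separate mice, so their p-values rest on a spread between samples that may be technical.

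Values are log2 ratios within arrays, so 1 is a doubling, and SE is limma's standard error. A gene counted as tested when all channels of 1 or more groups showed its probe well above background and outlier spots, as the scanner software marks them, left it on every tissue array or on all but 1 organoid array. A gene was called when limma's Benjamini-Hochberg adjusted p, over all genes of that experiment, was under 0.05. The share of spots well above background was 44.6% to 59.1% per channel. Outlier spots made up 13.7% to 16.3% of spots on the arrays with KOWI and at most 4.41% on the others. The mean log2 Trp53 ratio to WT was -0.21 in tissue (limma adjusted p = 0.614), -0.83 in KO organoids (limma adjusted p = 0.587) and -0.79 in KOWI organoids (limma adjusted p = 0.0785); whether its probe lies in the deleted part was not checked. In tissue the dye-swapped arrays of pair 1 correlated at -0.78 over tested genes and those of pair 2 at -0.58, the sign that dye-swapped ratios should have. Over all probes, dim ones included, these correlations were -0.24 and 0.11.

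In tissue 49 of the 79 genes were tested, 21 missed the signal filter and 9 were lost to outlier spots. In organoids 38 were tested, 26 missed the signal filter and 15 were lost to outlier spots. The tested sets shared 33 genes, and 14 genes missed the signal filter in both experiments. Of these 14, St8sia3 was above background in no channel, while others such as B3galt1 in tissue and St8sia2 in organoids had signal in several channels but not in all channels of a group. The filter lets in a gene that is bright in only 1 group, so counts below are over the tested genes and not over all 79.

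The promoters of St8sia4 and B3gnt5 are shown because these genes had the largest organoid ratios in opposite directions. St8sia4 makes polysialic acid, a long chain of alpha-2,8-linked sialic acid best known on the neural cell adhesion molecule. B3gnt5 makes lactotriaosylceramide, the first step of the lacto-series glycolipids. The sequences run 5′ to 3′ from 250 bases before to 50 bases after the RefSeq start (GRCm38.p6), St8sia4 on the minus strand at chr1:95667545-95667844 and B3gnt5 on the plus strand at chr16:19759984-19760283. Capitals mark matches on either strand to GGGCGG, the GC box, or GGAATG, the TEAD motif.
St8sia4: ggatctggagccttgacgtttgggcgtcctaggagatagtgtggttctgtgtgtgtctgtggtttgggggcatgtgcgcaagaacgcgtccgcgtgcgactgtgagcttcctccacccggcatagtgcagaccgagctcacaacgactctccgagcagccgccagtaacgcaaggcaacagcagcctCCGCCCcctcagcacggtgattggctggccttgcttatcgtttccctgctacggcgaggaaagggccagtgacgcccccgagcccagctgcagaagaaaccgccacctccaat
B3gnt5: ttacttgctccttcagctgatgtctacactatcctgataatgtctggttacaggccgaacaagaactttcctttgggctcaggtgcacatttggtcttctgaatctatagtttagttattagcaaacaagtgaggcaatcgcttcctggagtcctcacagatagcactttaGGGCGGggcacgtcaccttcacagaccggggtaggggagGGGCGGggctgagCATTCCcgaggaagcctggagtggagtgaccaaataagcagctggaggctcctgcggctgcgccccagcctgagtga
The St8sia4 promoter held 1 GC box on the reverse strand, starting 63 bases before the start, and the B3gnt5 promoter held 2 GC boxes and 1 reverse-strand TEAD motif starting 27 bases before the start. Neither window held CTTTGA, the TCF/LEF motif, TGANTCA, the AP-1 motif, or a p53 half-site. Of the 32851 promoters of this length in the table, 35.7% held GGGCGG, 14.7% GGAATG, 16.0% CTTTGA, 7.81% TGANTCA and 8.36% a p53 half-site. Promoters were listed for 56 of the 79 genes in 76 entries, several genes having more than 1 start, of which 55.3% held GGGCGG, 15.8% GGAATG, 13.2% CTTTGA, 5.26% TGANTCA and 6.58% a p53 half-site. The motifs were picked with the organoid results known, and a match describes letters, not binding.

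In colon tissue most of these genes were lower in KO than in WT mice, but no single gene passed the test. Of 49 tested genes 33 had a log2 KO over WT ratio below 0, and 31 were below 0 in both mouse pairs, where 34.8% of all tested genes were. Above 0 in both pairs were 13 of 49, against 32.2% of all genes. The median was -0.15 for these genes and -0.00 for all 13152 tested genes. It was -0.21 in pair 1, where 34 were below 0, and -0.09 in pair 2, where 33 were. limma called 0 of 49 after adjustment, and 0% of all genes (smallest adjusted p = 0.256). At an unadjusted p under 0.05, 18 of 49 were lower, against 7.1% of all genes, and 7 were higher, against 7.57%. In bulk tissue, fewer cells of a type and less RNA per cell cannot be told apart. With median centring in place of loess limma called 8 of 49 genes (895 of all), and with the 4 arrays taken as independent 6 of 49 (601 of all).

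**Figure D1:**
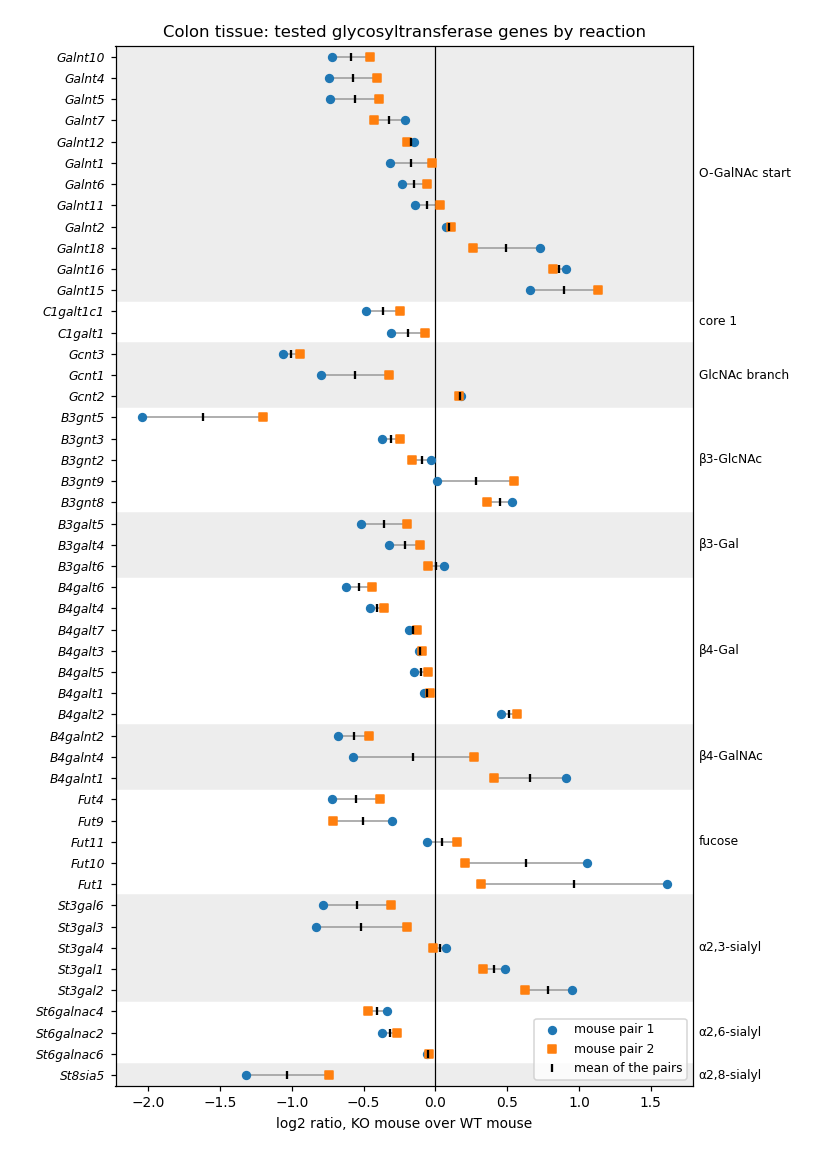
Log2 ratio of KO over WT mouse in each of the 2 mouse pairs (circles and squares, mean as a tick) for the 49 tested genes, grouped by reaction. Points of 31 genes lie left of 0 in both pairs, with B3gnt5, St8sia5 and Gcnt3 farthest left.

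Initiation of O-glycans was split. Of 12 tested Galnt genes, 7 were below 0 in both pairs and 4 above 0 in both. The lower side held Galnt10 (-0.72 and -0.46), Galnt4 (-0.74 and -0.41), Galnt7 (-0.21 and -0.43) and Galnt5 (-0.73 and -0.39). The brighter Galnt10 probe lost a spot to outlier flags. With outlier spots kept the Galnt10 mean was -0.11, against -0.59 at the probe read here. Galnt4, Galnt7 and Galnt10 belong to the isoforms that add GalNAc next to sites already glycosylated. The higher side was led by Galnt15, with ratios of 0.66 and 1.13 (mean 0.90, SE 0.16, limma adjusted p = 0.276), and Galnt16, at 0.91 and 0.82 (mean 0.86, SE 0.07, limma adjusted p = 0.256). Galnt18 had 0.73 and 0.26.

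Both core 1 genes were below 0 in both pairs. C1galt1, the synthase that adds galactose to form core 1, had -0.31 and -0.07 (mean -0.19, SE 0.09, limma adjusted p = 0.461). Its ratio was above 0 when KO mouse 1 (0.12) or WT mouse 2 (0.0038) was left out of a fit without pairing. C1galt1c1, which encodes Cosmc, the chaperone that this synthase needs to fold, had -0.48 and -0.25 (mean -0.37, SE 0.09, limma adjusted p = 0.328). B3gnt6, which makes core 3, the other main core of colon mucins, was not well above background in every channel of either tissue group and was not tested.

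Of 3 branching enzymes 2 were below 0 in both pairs. Gcnt3, the enzyme of mucin-secreting cells that forms core 2 and core 4 branches, was -1.06 in pair 1 and -0.95 in pair 2. Both pairs therefore had about the same ratio, and its mean was 2.01-fold lower in KO (SE 0.07 on the log2 scale, limma adjusted p = 0.256). Gcnt1, which also forms core 2 branches, had -0.80 and -0.32. Gcnt2, which branches lactosamine chains into I antigen, had 0.18 and 0.16. The dyes disagreed in pair 1, with -0.29 for KO in Cy5 and 0.64 for KO in Cy3. This was a dim probe that passed the signal filter only through WT. The brighter probe lost a spot to outlier flags, and with outlier spots kept the mean was 0.35.

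Among enzymes that add beta-3-linked GlcNAc, B3gnt5 had the lowest tissue ratio of all 49 genes, with -2.04 and -1.20 (mean -1.62, SE 0.27, limma adjusted p = 0.271). Its other bright probe gave a mean of -1.59. B3gnt3, which extends core 1, had -0.37 and -0.25, whereas B3gnt8, a partner of the polylactosamine enzyme B3gnt2, had 0.54 and 0.36. Galactose transfer was mostly lower: 2 of 3 tested B3galt genes and 6 of 7 B4galt genes were below 0 in both pairs. The lowest were B4galt6 (-0.63 and -0.44), a lactosylceramide synthase, and B4galt4 (-0.46 and -0.36). The exception was B4galt2, at 0.46 and 0.57. B3galt5, which makes the type 1 chains of gut epithelium, had -0.52 and -0.20 (mean -0.36, SE 0.12, limma adjusted p = 0.368).

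B4galnt2 adds the GalNAc of the Sda blood group antigen, a cap of the gut epithelium. Its ratios were -0.68 and -0.46 (mean -0.57, SE 0.09, limma adjusted p = 0.271), and -1.01 to -0.13 when single mice were left out of a fit without pairing. B4galnt1, the ganglioside GM2/GD2 synthase, went the other way with 0.91 and 0.41 (mean 0.66). A second B4galnt1 probe gave a mean of 0.28. Fucosyltransferases were also split. Fut4 (-0.72 and -0.38) and Fut9 (-0.30 and -0.71), which make Lewis x, were below 0 in both pairs. In pair 1, however, Fut9 was -0.75 with KO in Cy5 and 0.15 with KO in Cy3. Its probe passed the signal filter only through WT, with 3 of 4 KO channels above background. Fut1, which adds the alpha-1,2 fucose of H antigen, had 1.61 in pair 1 but 0.32 in pair 2, so its mean of 0.96 (SE 0.40, limma adjusted p = 0.418) rests mostly on pair 1. Fut2, its relative in secretory epithelium, was not above background in tissue.

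Sialyltransferases did not share 1 direction. Of the 5 tested alpha-2,3 enzymes, St3gal3 (-0.83 and -0.20) and St3gal6 (-0.78 and -0.31), which cap lactosamine, were below 0 in both pairs. St3gal1 (0.48 and 0.33) and St3gal2 (0.95 and 0.62), which cap core 1, were above. For St3gal1 the direction rests on single mice, since without pairing its ratio was -0.27 when KO mouse 2 and -0.35 when WT mouse 1 was left out. All 3 tested alpha-2,6 enzymes were below 0 in both pairs, St6galnac4 at -0.34 and -0.47, St6galnac2 at -0.37 and -0.26, and St6galnac6 at -0.06 and -0.05. St6galnac6 changed sign with the dye, at 0.02 and 0.07 with KO in Cy5 and -0.13 and -0.16 with KO in Cy3. The St6galnac2 probe was dim and above background in 3 of 4 KO and all WT channels, and a second probe gave a mean of -0.07. St6gal1, which caps lactosamine, lost 3 of 4 tissue arrays to outlier flags, and St6galnac1, which makes sialyl-Tn, lost 1. With these spots kept their ratios were -0.17 and -0.13, and 0.19 and -0.01. Of the alpha-2,8 enzymes only St8sia5, a ganglioside sialyltransferase, was tested, with -1.32 and -0.74 (mean -1.03, SE 0.19, limma adjusted p = 0.279). St8sia4 had 0.17 and 0.96 with an outlier spot kept (limma adjusted p = 0.436 in that fit).

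The direction of the tissue ratio went with whether a gene passed the signal filter in organoids. Of 40 tissue-tested genes that passed it, 9 were above 0 in tissue (22.5%), with a median of -0.18. Of 9 tissue-tested genes that missed it, 7 were above 0, with a median of 0.49. These 7 were B3gnt8, B3gnt9, B4galt2, Fut10, Galnt15, Galnt16 and Galnt18, and the other two were Galnt5 and St8sia5. Over all tested genes the same split gave 44.9% above 0 and a median of -0.01 for 11767 genes, and 81.8% above 0 and a median of 0.34 for 1385 genes. The glycosyltransferases thus had the same order as all genes, and the split is a description with no test. Missing the filter is not absence, since Fut10 was above background in 3 of 4 channels of every organoid group. Passing it does not mark epithelial genes alone: besides every general epithelium, goblet, colonocyte and enteroendocrine marker tested in tissue, 5 of 8 smooth muscle, 4 of 8 skeletal muscle, 4 of 8 macrophage, 3 of 6 T cell and 1 of 9 fibroblast markers passed it.

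**Figure D2:**
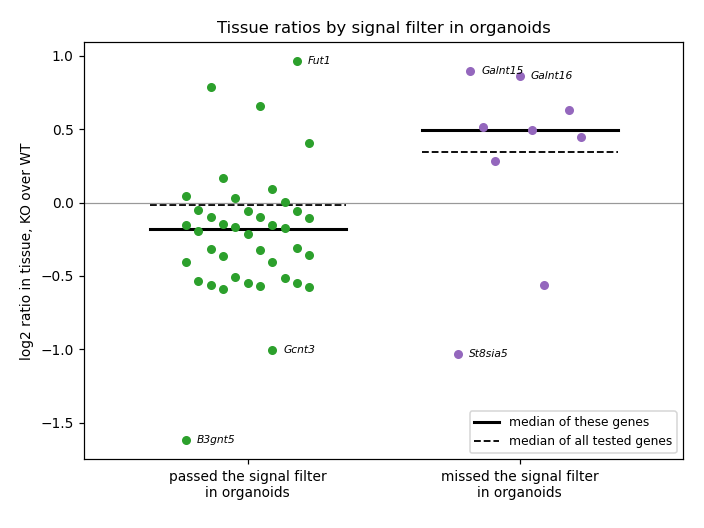
Mean log2 ratio of KO over WT in tissue for each tested gene, by whether the gene passed the signal filter in organoids. Solid lines are the medians of these genes, -0.18 and 0.49, and dashed lines the medians of all tested genes, -0.01 and 0.34.

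No marker of the tissue's cell types was called, but several lists lay to 1 side. All 15 tested goblet cell markers and all 12 general epithelium markers had KO over WT ratios below 0 (medians -0.19 and -0.14), as did 15 of 16 colonocyte markers (median -0.15) and 10 of 10 enteroendocrine markers (median -0.51). All 9 fibroblast (median 0.13), 8 smooth muscle (0.17) and 8 skeletal muscle markers (0.41) were above 0. The mean log2 intensity of the goblet list ran from 13.91 to 13.98 in KO and from 14.15 to 14.48 in WT mice, and that of the fibroblast list from 14.17 to 14.22 in KO and from 13.64 to 13.97 in WT. For skeletal muscle it overlapped, 15.11 to 16.23 in KO and 14.47 to 15.84 in WT. Squamous epithelium markers, all 8 of which passed the signal filter in organoids, were above 0 in 8 of 8 (median 0.24; list level 16.61 to 16.64 in KO and 16.19 to 16.59 in WT). For neuron and glia, 5 of 6 markers were above 0 (median 0.13), with list levels of 10.65 to 10.78 in KO and 10.51 to 10.56 in WT. The list levels of smooth muscle, T cells, macrophages, B and plasma cells, tuft cells and endothelium overlapped between genotypes. Markers above 0 were 6 of 6 for T cells (median 0.16), 6 of 6 for endothelium (0.32), 7 of 8 for macrophages (0.25) and 3 of 4 for tuft cells (0.31). All 4 B and plasma cell markers were below 0 (-0.12). No marker of these lists was at background on all tissue arrays except the tuft cell genes Trpm5 and Il25. The share of the enzyme ratios that goes with these lists was not tested.

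Between KO and WT organoids, both in full medium, no gene of the group passed the test. limma called 0 of 38 tested genes in KO over WT, and 0% of all 11340 genes (smallest adjusted p = 0.0645). At an unadjusted p under 0.05 there was 1 of 38, against 5.35% of all genes (3.99% higher and 1.37% lower). The median log2 ratio was 0.07, against 0.06 over all genes. KO samples lay above both WT samples for 8 of 38 genes (18.5% of all genes) and below for 4 (12.2%). Values in the following paragraphs are sample levels on the log2 scale relative to the mean of the WT samples, replicate 1 first. The organoid comparisons share samples, so their ratios are given side by side and not as separate evidence.

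In KOWI organoids the sialyltransferase St8sia4 rose, and it was the only gene of the group that was called. limma called 1 of 38 in KOWI over WT, against 5.39% of all genes (3.35% higher and 2.04% lower). It called 1 of 38 in KOWI over KO, against 0.432% of all genes (0.168% higher and 0.265% lower). At an unadjusted p under 0.05, 6 of 38 were higher in KOWI than WT (14.1% of all genes) and 9 lower (8.99%), 15 in all against 23.1%. In KOWI over KO, 4 were higher (6.92%) and 7 lower (7.06%), 11 in all against 14%. Both KOWI samples lay below both WT samples for 17 of 38 genes, where 23.7% of all genes did, and above them for 10, where 24.1% did. The median KOWI over WT ratio was -0.08, against 0.02 over all genes. Galnt14 and Fut9 passed the signal filter only through KOWI, St8sia4 through KO and KOWI, and B3gnt6, B3gnt5, Fut2 and St6galnac4 through WT and KO. The direction of such genes, St8sia4 included, was therefore partly set by the filter.

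**Figure D3:**
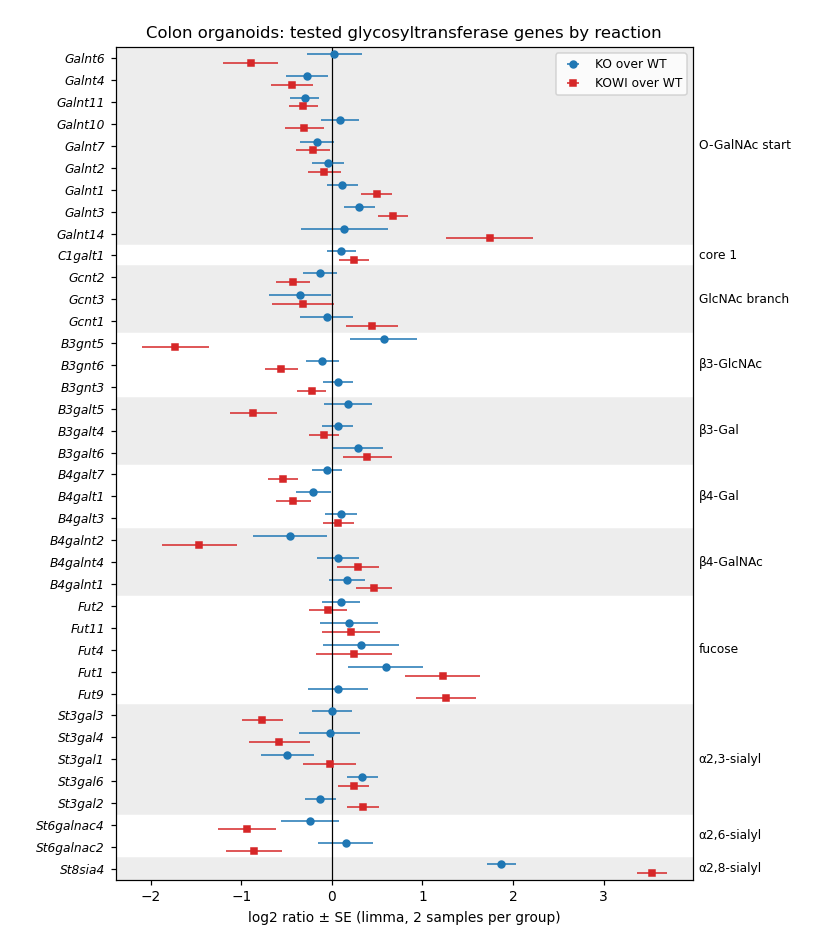
Log2 ratios of KO over WT (circles) and KOWI over WT (squares) with limma's SE for the 38 genes tested in organoids, 2 samples per group, grouped by reaction. St8sia4 is at 1.87 and 3.53, while B3gnt5 and B4galnt2 have the lowest KOWI ratios.

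St8sia4 was 0.41 and -0.41 in WT, 2.34 and 1.40 in KO, and 3.99 and 3.08 in KOWI. The 3 groups did not overlap, each KO sample lying above both WT samples and each KOWI sample above both KO samples. This order without overlap was seen in 5 of 38 genes and in 4.72% of all genes. KOWI over WT was 3.53 (SE 0.16, 11.6-fold, limma adjusted p = 0.00658) and KOWI over KO 1.67 (SE 0.16, 3.17-fold, limma adjusted p = 0.0332). KO over WT was 1.87 (SE 0.16, 3.65-fold) and was not called (limma adjusted p = 0.165). On single arrays log2 Cy5 over Cy3 was 2.54 for KOWI over WT and -4.27 for WT over KOWI, so KOWI was the brighter sample in either dye. The probe lies on mm9 chromosome 1 from 97484331 to 97484390 and was well above background in 3 of 4 WT channels and in all KO and KOWI channels. A second St8sia4 probe was too dim to test.

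The KOWI over WT call of St8sia4 held under 8 of 9 other processing settings, with ratios from 3.53 to 4.91, and was lost with the scanner software's ratios (limma adjusted p = 0.0543). The KOWI over KO call held under 3 of 9: probes under a log2 intensity of 14, the mean of all probes, and arrays taken as independent. St8sia4 has a single passing probe, so its ratio was the same under all of these. Taking arrays as independent also ignores that they share samples. These settings, no filter on dim probes and no replicate block likewise left KOWI over WT at 3.53, so neither count is one of separate checks. Without single organoid samples the limma adjusted p of KOWI over KO ran from 0.0186 to 0.575, and it was lost without either KO or either KOWI sample. Blood and nerve cells also use St8sia4. In organoids the mean log2 intensity of the neuron and glia list was 6.93 to 7.04 in KOWI and 7.41 to 7.60 in WT, with Sox10, Gfap and S100b at background on every array. That of the T cell list was 7.33 to 7.64 in KOWI and 7.67 to 7.72 in WT, with Cd3g at background. The macrophage list (8.91 to 9.04 in KOWI and 8.88 to 8.99 in WT, with Adgre1 and C1qc at background) and the B and plasma cell list (8.20 to 8.31 and 8.17 to 8.26, with Cd79a and Cd79b at background) overlapped. Among their tested markers Uchl1 (1.06, limma adjusted p = 0.0408), Lck (1.36, limma adjusted p = 0.0459) and the macrophage gene Cd68 (0.87, limma adjusted p = 0.0459) were higher in KOWI than WT. The part of such cells in the St8sia4 result was not tested.

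**Figure D4:**
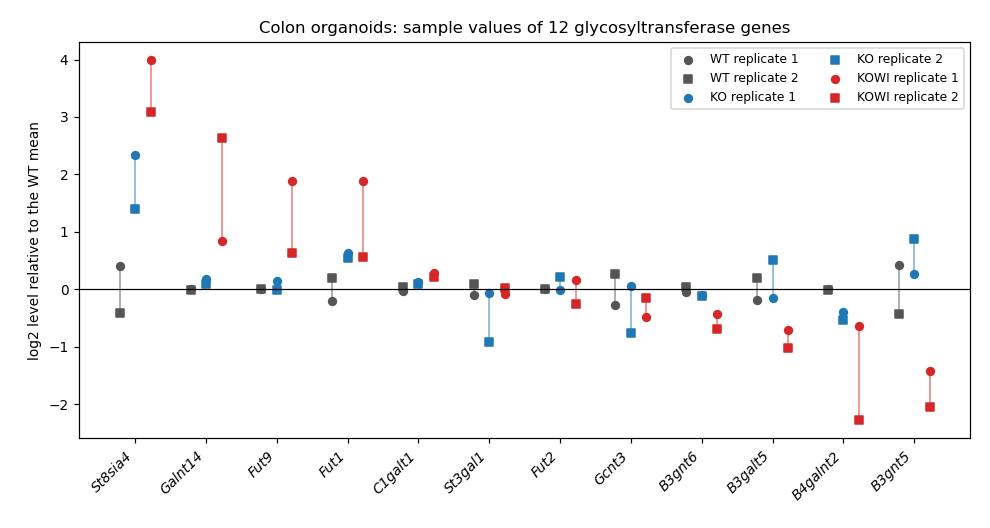
Log2 level of 12 genes in each of the 6 organoid samples relative to the WT mean (circles replicate 1, squares replicate 2), ordered by the KOWI mean. The St8sia4 samples lie in the order WT, KO, KOWI without overlap, and the KOWI samples of Galnt14, Fut9, Fut1 and B4galnt2 lie far apart.

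The other end was B3gnt5, the lacto-series enzyme. It was 0.43 and -0.43 in WT, 0.28 and 0.87 in KO, and -1.41 and -2.04 in KOWI. Both KOWI samples lay below all 4 others, while KO and WT overlapped. KOWI over WT was -1.73 (SE 0.37, limma adjusted p = 0.0611) and KOWI over KO -2.30 (SE 0.37, limma adjusted p = 0.0746), so neither was called. Its second bright probe gave -1.20 and -1.62. With single samples left out, KOWI over WT ran from -2.15 to -1.30 and KOWI over KO from -2.98 to -1.63. The probe was above background in all WT and KO channels and in 2 of 4 KOWI channels, and it lies on mm9 chromosome 16 from 19772327 to 19772386.

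The initiating enzymes again went both ways. Galnt14 was 0.01 and -0.01 in WT, 0.18 and 0.10 in KO, and 0.85 and 2.64 in KOWI. Both KOWI samples were the highest, but they differed by more than the KOWI over WT mean of 1.74 (SE 0.48, limma adjusted p = 0.107), and the probe was above background in 1 of 4 WT channels. With the authors' deposited value table limma called this gene (3.47, adjusted p = 0.0374). With single samples left out its KOWI over WT ratio ran from 0.84 to 2.69. Galnt3, which glycosylates the phosphate hormone FGF23, was 0.70 and 0.65 in KOWI and 0.33 and 0.28 in KO, with WT at -0.09 and 0.09. It had the same order without overlap as St8sia4 (KOWI over WT 0.67, SE 0.17, limma adjusted p = 0.0867). Galnt6 was lower, at -0.77 and -1.02 in KOWI against -0.46 and 0.46 in WT and -0.01 and 0.06 in KO. Its KOWI over WT ratio of -0.90 was -0.33 at a second, dimmer probe.

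No core 1 or branching gene was called in organoids. C1galt1 was -0.03 and 0.03 in WT, 0.12 and 0.09 in KO, and 0.29 and 0.21 in KOWI, and its KOWI over WT ratio of 0.25 did not pass the test. C1galt1c1 could be read only with outlier spots kept, and its KOWI over WT ratio was then -0.14 (limma adjusted p = 0.822). Gcnt3 overlapped in all groups, with WT at -0.27 and 0.27, KO at 0.05 and -0.75, and KOWI at -0.48 and -0.16. The brightest Gcnt3 probe, which gave the tissue value, lost 3 of 6 organoid arrays to outlier spots, so another probe was read here. With outlier spots kept the brightest probe gave -0.66 in KO over WT (SE 0.21) and -0.45 in KOWI over WT (SE 0.21). Neither was called.

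None of the 3 tested B3gnt genes was called in KOWI over WT. B3gnt6, the core 3 synthase, was -0.05 and 0.05 in WT, -0.10 and -0.11 in KO, and -0.42 and -0.69 in KOWI. The groups did not overlap, and its signal was not well above background in any KOWI channel, so the ratio of -0.56 (SE 0.18, limma adjusted p = 0.146) may understate the difference. B3galt5, the type 1 chain enzyme, was -0.19 and 0.19 in WT, -0.15 and 0.50 in KO, and -0.71 and -1.01 in KOWI. Its KOWI samples lay below all others (KOWI over KO -1.04, SE 0.26, limma adjusted p = 0.163). B4galt7, which builds the linker of proteoglycans, was -0.58 and -0.50 in KOWI, with all other samples between -0.09 and 0.06.

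B4galnt2, the Sda enzyme, was 0.01 and -0.01 in WT, -0.39 and -0.54 in KO, and -0.65 and -2.28 in KOWI. The groups were in this order without overlap, but the KOWI samples differed widely. KOWI over WT was -1.46 (SE 0.41, limma adjusted p = 0.112), and -0.60 at its dimmer probe. It was called without KO replicate 1 (-1.41, limma adjusted p = 0.0146) and without KOWI replicate 1 (-2.26, limma adjusted p = 0.00943), and not in the other 4 fits that left out a sample.

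None of the 5 tested fucosyltransferases was called in KOWI over WT. Fut9 was 0.00 and -0.00 in WT, 0.15 and -0.01 in KO, and 1.89 and 0.63 in KOWI. It was well above background in no WT channel and in every KOWI channel. Its WT signal, which exceeded the lowest signal well above background on each array, was taken as the upper limit of its WT level. On that basis its mean signal was 2.22-fold higher in KOWI than in WT (limma adjusted p = 0.0953 for the fitted ratio). The log2 KOWI over WT ratio was 1.89 in replicate 1 and 0.63 in replicate 2, so 2.22-fold is no lower limit for each sample. Fut1 was -0.21 and 0.21 in WT, 0.64 and 0.55 in KO, and 1.89 and 0.56 in KOWI. All KO and KOWI samples lay above both WT samples, and KO and KOWI overlapped (KOWI over WT 1.23, SE 0.41, limma adjusted p = 0.159). Fut2 overlapped in all groups, with WT at 0.00 and -0.00, KO at -0.01 and 0.21, and KOWI at 0.17 and -0.26.

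Of the 7 tested sialyltransferases other than St8sia4, 5 had KOWI over WT ratios below 0 and none was called. Both tested alpha-2,6 enzymes were below all WT and KO samples: St6galnac2 at -0.31 and -1.41, and St6galnac4 at -0.72 and -1.14. Their KOWI over WT ratios were -0.86 and -0.93 (limma adjusted p = 0.175 and 0.165). Without KOWI replicate 1, the sample nearer to WT for both genes, the ratios were -1.37 and -1.49 and rested on 1 KOWI sample. A second, dimmer St6galnac4 probe gave -0.01. St3gal3 had -0.99 and -0.54 in KOWI, with WT and KO between -0.24 and 0.24. St3gal1 was -0.10 and 0.10 in WT, -0.07 and -0.91 in KO, and -0.08 and 0.03 in KOWI, so 1 KO sample stood apart. St6gal1 and St6galnac1 were read only with outlier spots kept. Their KOWI over WT ratios were then -0.43 and -0.09, and neither was called. The same holds for the other 13 genes that outlier flags removed, of which St8sia1, the GD3 synthase, had the lowest ratio (-0.60, limma adjusted p = 0.267).

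Most goblet cell and colonocyte markers were lower in KOWI beside these enzymes. Of 14 tested goblet cell markers, 13 had ratios below 0 in KOWI over WT (median -0.62, 3 called) and 14 in KOWI over KO (median -1.06, 2 called), while 13 were above 0 in KO over WT (median 0.40, none called). Of 14 colonocyte markers, 13 were below 0 in KOWI over WT (median -1.52, 8 called) and 11 in KOWI over KO (median -0.91, 4 called). The mean log2 intensity of the colonocyte list was 12.89 to 13.04 in KOWI, 14.06 to 14.08 in KO and 14.73 to 14.74 in WT. That of the goblet list was 10.88 to 10.93 in KOWI, 11.75 to 11.86 in KO and 11.37 to 11.40 in WT, with Retnlb at background on every array. In KOWI over WT, 9 of 9 tested enteroendocrine markers (median -0.56, none called) and 9 of 11 general epithelium markers (median -0.38, 2 called) were below 0. Of 9 tuft cell markers only 2 were tested, and these 2 were above 0 (median 1.66, 1 called). How far the lower enzymes go with these lists was not tested.

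The KO ratio in tissue minus that in organoids was tested for the 33 genes measured in both. Tissue and organoids also differed in the recombinase, DSS injury and Nutlin-3A selection, which cannot be told apart here. limma called 0 of 33, and 0% of all 10087 genes. At an unadjusted p under 0.05 there were 8 of 33, against 12.3% of all genes, of which 7 had a negative difference (9.1% of all genes) and 1 a positive one (3.17%). The difference was -2.20 for B3gnt5 (SE 0.58, limma adjusted p = 0.337), which had a KO over WT ratio of -1.62 in tissue and 0.58 in organoids. It was 0.91 for St3gal2 (SE 0.17, limma adjusted p = 0.270) and -0.68 for Galnt10 (SE 0.16, limma adjusted p = 0.304). The Galnt10 difference depends on the probe. With outlier spots kept a brighter Galnt10 probe was read, with KO over WT ratios of -0.11 in tissue and 0.15 in organoids. Different probes were read in tissue and organoids for Gcnt2, Gcnt3, St3gal1, St3gal4, St3gal6 and St6galnac2. For St3gal6 the probe read in organoids had a tissue ratio of -1.09, against -0.55 for the probe read in tissue.

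Genes that feed and use these enzymes were read from 6 lists. In tissue 15 of 17 tested genes of nucleotide sugar supply were below 0 in both pairs, against 34.8% of all tested genes, with none called, led by Gnpnat1 of UDP-GlcNAc synthesis at -0.74 and -0.39. Gfpt2, an enzyme of the same route, had 0.07 and 1.33. Of 9 Golgi sugar transporters 6 were below 0 in both pairs, led by the UDP-GlcNAc transporter Slc35a3 at -0.62 and -0.43. In KOWI over WT, where 2.04% of all genes fell and 3.35% rose, 1 of 9 transporters fell, the UDP-glucuronate and UDP-GalNAc transporter Slc35d1 (-1.26, limma adjusted p = 0.0375). Of 15 genes of nucleotide sugar supply none was called there and 12 were below 0, Gmds of GDP-fucose synthesis being lowest (-1.36, limma adjusted p = 0.0568).

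Of 12 other tested glycosyltransferases 1 fell in KOWI over WT, Mgat4a, which branches N-glycans (-1.04, limma adjusted p = 0.0453). Abo, the blood group enzyme, had -0.80 there (limma adjusted p = 0.0777) and -1.08 and -0.66 in the tissue pairs. Of 4 tested sulfation genes Chst8 rose (1.30, limma adjusted p = 0.0249), and Gal3st2, which sulfates galactose, had -1.41 (limma adjusted p = 0.111). Of 11 genes that modify sialic acid or remove sugars none was called, and Cmah, which makes the N-glycolyl form of sialic acid, had 1.31 and 1.28 (limma adjusted p = 0.0902). Of 7 tested mucins, the proteins that carry these glycans, Muc3 (-3.88, limma adjusted p = 0.00658) and Muc3a (-1.24, limma adjusted p = 0.0493) fell. Each list is too short for 1 or 2 calls to be read against the 5.39% of all genes called. Both name membrane mucins of the brush border, and Muc3 stands in the colonocyte list too. In KO over WT, none of these 6 lists had a called gene.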

How the data were processed

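Per the file headers, the authors scanned 10 Agilent arrays (design 074809) with Feature Extraction 12.2.0.7 and deposited spot mean and background intensity without normalization, a processed log10 ratio of Cy5 over Cy3, and flags. The authors also deposited a log2 ratio table, and limma is the tool in the submitters' processing notes. Its slope on the scanner ratios was 0.970 to 1.00 and its column medians -0.0147 to 0.0167, so scale and direction matched; how it was centred is not given in the sources used here. Probe coordinates are mm9, per the file headers.

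From the intensities, ratios were made with limma 3.58.1 under R 4.3.3: normexp with an offset of 50, then loess within arrays, with outlier spots set missing. A RefSeq accession gave the gene of 35405 of 56605 probes, a symbol that of 9124 and a synonym that of 25; the group itself was chosen on the files' own gene names. The brightest passing probe stood for a gene. In tissue the ratios of each mouse pair were averaged over the dyes and tested against 0. In organoids the arrays were fitted to 6 sample values, and group was tested in limma with a block for replicate number, which is also the dye of every sample. The tissue pairs come from the arrays' design, and the organoid numbers from the dye. Benjamini-Hochberg adjustment ran over all tested genes. The number of arrays limits the precision. Each experiment had its own slide, so tissue and organoid levels were not compared. In 1 tissue label the Cy3 replicate number disagreed with the title, which was followed.

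The genes, lists and motifs were chosen with earlier results of these data known. Given sample by sample were members called in any comparison, the 5 with the largest ratio in each of 4 comparisons, and 8 genes of central steps; Galnt3, Galnt6 and other genes named beside them were picked after their values were seen. Of 12 genes with several passing organoid probes, 8 had 1 sign in KO over WT and 10 in KOWI over WT, and in tissue 13 of 13. The scripts were tested on simulated data. Sequences are from RefSeq (GRCm38.p6).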

Additional observations from a re-analysis of the deposited data

How the results depend on the processing

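Of 49 tested genes in tissue none was called, and this held under the scanner software's ratios, the authors' deposited table, outlier spots kept, no filter on dim probes, probes under a log2 intensity of 14, the mean of all probes, no replicate block and each left-out mouse (0 to 0). Median centring gave 8 calls and arrays taken as independent 6. In organoids, KO over WT went from 0 calls to 1 with arrays as independent, and to between 0 and 1 without single samples. KOWI over WT went from 1 call to 0 with the scanner software's ratios, 2 with the authors' table, 19 with arrays as independent and 1 to 5 without single samples, 5 of them without KO replicate 1 or KOWI replicate 1. KOWI over KO went from 1 call to 0 with the scanner software's ratios, median centring, the authors' table, outlier spots kept, no filter or no replicate block, 16 with arrays as independent, and 0 to 3 without single samples. Without the replicate block, the paired fit's St8sia4 call in KOWI over WT kept an adjusted p of 0.0202 and that in KOWI over KO had 0.195. The tissue minus organoid difference had 0 calls in all 3 alternatives run. The cause of these differences was not tested. With all genes, KOWI over WT had 611 calls, and 134 with the scanner software's ratios, 227 with median centring, 275 with the authors' table, 59 with outlier spots kept, 262 without the filter and 4211 with arrays as independent; KOWI over KO had 49, and 0 to 2544. No called gene reversed. Of the values of single named genes under an alternative, 594 kept direction and side of the threshold, 35 passed it newly, 11 lost it and 27 changed sign while not called. Medians of the tested genes kept their sign in tissue (-0.24 to -0.08).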
